A study of Mus musculus with 30 samples.

Results

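The comparison described here is that of KO with WT kidneys after high-fat diet (HFD), over all genes. It was formed by the genotype, diet and tissue in the sample labels and holds 8 of the 30 libraries of the series, with 4 KO-HFD and 4 WT-HFD mice. The mice of a group are numbered 1 to 4 in the order of their records, as names only, and values are given in this order. The study asked what the EGF receptor (EGFR) of vascular smooth muscle (VSM) contributes to vascular and renal damage in diet-induced obesity. KO mice carried loxP sites in both copies of Egfr on a C57BL/6 background, together with Cre-ERT2, a Cre recombinase switched on by tamoxifen, driven by the promoter of smooth muscle myosin (SMMHC) and taken from a C57BL/6N line. Controls (WT) had this Cre but no loxP sites, and the labels give the background of all mice as C57Bl6J. All groups received intraperitoneal tamoxifen, 1 mg per mouse and day for 5 days, so Cre and tamoxifen were shared by the controls. The mice were 6 weeks old when HFD began, 7 days after tamoxifen, and were fed it for 18 weeks. Kidney tissue of single mice was snap frozen and its RNA was sequenced. A further 8 kidney libraries came from 4 WT and 4 KO mice kept on standard-fat diet (SFD) for the same time. They served to estimate the spread and to set the same genotype comparison in other mice beside the one on HFD.

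EGFR, also called ErbB1, is a receptor tyrosine kinase that binds EGF, TGF-α, HB-EGF and related ligands and pairs with ErbB2, ErbB3 or ErbB4. Its activation feeds the MAPK cascade and induces immediate early genes and feedback inhibitors of the receptor. In the kidney EGFR is expressed along the tubule as well as in vessels, and the thick ascending limb and distal convoluted tubule are the main source of EGF. VSM cells form the media of renal arteries and arterioles and are a small part of the tissue, which consists mostly of tubules. In bulk kidney RNA, fewer cells of a type and less RNA per cell cannot be told apart.

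The total count per library ran from 17616939 to 21137341 in WT-HFD and from 17487556 to 21799372 in KO-HFD kidneys. Levels are given as FPM, the fragments of a gene scaled to the TMM-normalised library size. FPM are not divided by gene length, so levels are compared between mice and not between genes. The table lists 41128 genes, of which 23798 were detected in at least 1 kidney and 15034 passed the filter on low counts. No gene of chromosome 9, X, Y or the mitochondrial genome had a count in any kidney, nor had the last stretch of chromosome 8. These regions are not analysed here, and list members at 0 in them say nothing about expression. Of 802 genes on the lists used below, 66 were at 0 in all 16 kidneys, and 57 of these lie on chromosomes 8, 9 or X.

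The 8 HFD libraries did not separate by genotype. Between libraries, log2 values correlated across genes with r of 0.970 to 0.990 over the 28 pairs, where genes are no replicates. Its mean was 0.980 over 12 pairs within a group and 0.982 over 16 pairs of 1 KO and 1 WT library. The mean log2 level of proximal tubule transporters minus that of loop and distal nephron genes was 1.42, 1.14, 1.63 and 1.62 in KO-HFD mice and 1.31, 1.57, 1.59 and 1.49 in WT-HFD mice. It was lowest in KO-HFD mouse 2 and highest in KO-HFD mice 3 and 4, and the groups overlapped. Umod, which encodes uromodulin of the thick ascending limb, was at 3862, 4006, 4943 and 3287 FPM in WT-HFD and at 4310, 4253, 2543 and 3566 FPM in KO-HFD. Immunoglobulin genes stood out in KO-HFD mouse 2, with Igkc at 904 FPM against 71.0 to 181 FPM in the other 3 KO-HFD mice. Igkc also varied among WT-HFD mice, with 379.3, 384.5, 65.1 and 89.6 FPM. How much of each library's position came from the piece of tissue taken was not tested.

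Egfr itself (chromosome 11, 16752203 to 16918158 of GRCm38, plus strand) did not separate the groups. It was at 47.5, 36.9, 56.6 and 42.7 FPM in WT-HFD and at 42.9, 45.5, 40.5 and 43.5 FPM in KO-HFD kidneys. All KO values lay within the range of the WT values, and WT mouse 3 was the highest. The mean was 45.9 ± 8.30 FPM (SD, n = 4) in WT and 43.1 ± 2.08 FPM (SD, n = 4) in KO. The log2 fold change was -0.09, with a 95% interval from -0.37 to 0.19 (edgeR's quasi-likelihood test, Benjamini-Hochberg adjusted p = 1.00). The exact permutation test of the 8 values gave p = 0.657, two-sided, where 0.0286 is the smallest p that 4 against 4 allows. These counts cover deleted and kept exons in all cell types of the kidney, so they check neither the deletion in VSM cells nor the labels. Without WT mouse 3 the log2 fold change was 0.02. Without WT mice 3 and 4, it was 0.03.

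None of the other ErbB receptors or their ligands passed the test. Erbb2 was at 108 ± 7.82 FPM in WT and 106 ± 9.25 FPM in KO (SD, n = 4 each), a log2 fold change of -0.02 with a standard error of 0.09. Erbb3 and Erbb4 had log2 fold changes of -0.04 and -0.14, with standard errors of 0.13 and 0.30, and their signs turned when single libraries were left out. Of the 8 measured ErbB receptors and feedback inhibitors, none passed the test at an adjusted p under 0.05, and the median log2 fold change was -0.03 against 0.002 over all genes tested. Errfi1, an inhibitor that EGFR signalling induces and the gene with the most fragments on this list, was at 471, 546, 530 and 391.7 FPM in WT-HFD and 560, 544, 775 and 592 FPM in KO-HFD. Its log2 fold change was 0.35 with an interval from -0.07 to 0.77, and the groups overlapped. Lrig1, another inhibitor of ErbB receptors, had 0.22 for its log2 fold change (SE 0.13). Among 6 measured ligands and sheddases, Egf was at 1209 ± 195 FPM in WT and 1148 ± 240 FPM in KO (SD, n = 4 each). Nrg1 and Tgfa had log2 fold changes of -0.48 and -0.18, with standard errors of 0.29 and 0.21. None of the 6 passed the test, and their median was -0.05.

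Downstream of the receptor, none of 29 MAPK feedback and immediate early genes passed the test, and their median log2 fold change was 0.08. Etv4, an ETS factor induced by MAPK signalling, had the smallest p of the list. It was at 4.12, 5.97, 3.41 and 3.97 FPM in WT-HFD and at 5.05, 7.61, 10.6 and 5.83 FPM in KO-HFD, with overlap between WT mouse 2 and KO mice 1 and 4. Its log2 fold change was 0.72 ± 0.26 (SE) on HFD and -1.17 on SFD, with an adjusted p of 1.00 on HFD (edgeR). Dusp5, a phosphatase of ERK, had a log2 fold change of 0.40 (SE 0.21). Jund, with the most fragments of the list, was at 237 ± 36.0 FPM in WT and 267 ± 40.3 FPM in KO (SD, n = 4 each).

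Over all 15034 genes, edgeR's quasi-likelihood test after Benjamini-Hochberg adjustment called 0 genes (0.00%) at an adjusted p under 0.05 and 0 (0.00%) at the limit of 0.001 that the study used. DESeq2 called 1 gene, Camk2b, at either limit. At an unadjusted p under 0.05 edgeR had 263 genes (1.75%), with 139 higher (0.925%) and 124 lower (0.825%) in KO. Evenly spread p values would give 752 genes. The 4 KO values lay wholly above or wholly below the 4 WT values in 199 genes (1.32%), with 97 higher (0.645%) and 102 lower (0.678%) in KO. A random split of 4 against 4, of which there are 70, leaves a gene without overlap at a share of 0.0286, more than was seen. The middle of the log2 fold changes was narrow, from -0.08 at the lower to 0.09 at the upper quartile. Of the 10809 genes with a group mean of 5 FPM or more, 97.4% had a 95% interval within a 2-fold difference and 86.4% within a 1.5-fold difference. Over all genes tested these shares were 86.1% and 66.0%.

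**Figure D1:**
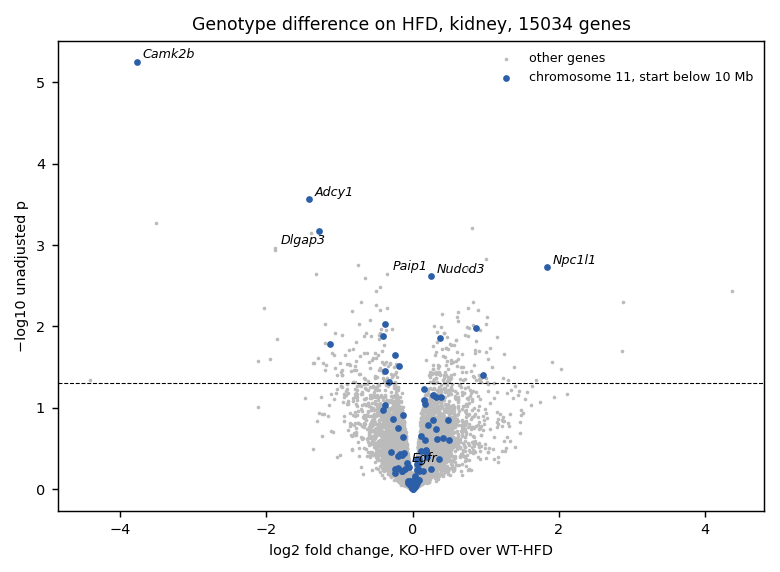
Each point is 1 of the 15034 genes tested in kidney. The x axis is the log2 fold change of KO-HFD over WT-HFD and the y axis the −log10 of the unadjusted p from edgeR, the dashed line marks 0.05, and blue points are genes of chromosome 11 that start below 10 Mb. Camk2b and Adcy1 have the smallest p values, Egfr lies near 0, and few points rise above the dashed line.

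By the size of the difference alone, that is Cohen's d over 2, means that differ over 1.5-fold and the higher mean above 5 FPM, 6 of 10810 genes were counted (0.0555%). They are named after their values were seen. The 5 with lower means in KO were Cyp4a14, Adcy1, Cldn1, Rn7s1 and Rn7s2, and Gm4705, a pseudogene, had the higher mean. Cyp4a14, a fatty acid ω-hydroxylase and target of PPAR-α, was at 202, 119, 128 and 173 FPM in WT-HFD and at 84.5, 86.0, 82.0 and 109 FPM in KO-HFD. All KO values lay below all WT values, yet the log2 fold change of -0.78 had a standard error of 0.61. The fit shares its estimate of the spread with the SFD kidneys, where WT values ran from 37.7 to 488 FPM. In the edgeR alternatives, including that with only the 2 groups compared, the adjusted p of Cyp4a14 was 0.9986 or more. Cldn1, a tight junction protein, was at 13.1, 13.4, 18.1 and 15.4 FPM in WT-HFD and at 9.44, 7.61, 8.86 and 12.3 FPM in KO-HFD, a log2 fold change of -0.65 ± 0.18 (SE) against -0.09 on SFD. Rn7s1 and Rn7s2 are copies of the 7SL RNA of the signal recognition particle, with log2 fold changes of -0.61 each, and reads may be shared between the copies. Leaving out 1 library gave 5 to 20 genes by these criteria.

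The smallest p of the comparison belonged to Camk2b (chromosome 11, 5969644 to 6066362, minus strand), which encodes the β subunit of calcium/calmodulin-dependent protein kinase II. It was at 6.94, 3.93, 2.73 and 3.58 FPM in WT-HFD and at 0.217, 0.216, 0.443 and 0.402 FPM in KO-HFD kidneys. These values came from 150, 77, 48 and 75 counts in WT and from 4, 5, 7 and 8 counts in KO. Every KO mouse lay far below every WT mouse. The log2 fold change was -3.78 ± 0.58 (SE), with an adjusted p of 0.0847 in edgeR's quasi-likelihood test, which misses the limit. DESeq2 gave an adjusted p of 2.1e-08, the legacy quasi-likelihood test 0.0267, edgeR without the low count filter 0.0317 and with the nephron covariate 0.0455. The other 13 alternatives missed the limit, with 0.0702 for protein-coding genes only, 0.0954 with only the 2 groups compared, 0.0964 with RLE factors, 0.114 without WT mice 3 and 4, 0.158 with library totals, and 0.0735 to 0.843 with 1 library left out. On SFD, in other mice, the same gene had a log2 fold change of -4.34 ± 0.62 (SE) and an adjusted p of 0.0271 (edgeR). With KO-SFD mouse 1, 2 or 3 left out, edgeR called no gene on SFD at an adjusted p under 0.05.

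Adcy1 (chromosome 11, 7063489 to 7178506, plus strand), a calmodulin-stimulated adenylyl cyclase, lies nearby and followed with the next smallest p. It was at 26.8, 15.2, 25.6 and 21.1 FPM in WT-HFD and at 12.3, 9.82, 4.495 and 6.34 FPM in KO-HFD. The groups did not overlap, with KO mouse 3 the lowest. The log2 fold change was -1.42 ± 0.31 (SE) on HFD and -1.04 ± 0.30 (SE) on SFD, with adjusted p values of 1.00 and 0.432 (edgeR). For Camk2b and Adcy1, as single values, the exact permutation test gave p = 0.0286, two-sided, the smallest that 4 against 4 allows. Any gene without overlap gives this value, and both genes were named for their small p, so it adds no support.

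Both genes lie on the chromosome of Egfr, 10.8 and 9.69 Mb before its start, and further genes of this stretch stood out. The bounds of the stretch were set after the values were seen. Of 100 genes tested that start in the first 10 Mb of chromosome 11, 15 (15%) had an unadjusted p under 0.05, against 1.64% of genes outside this chromosome and the stretch around Nnt described below. In the next 10 Mb, which hold Egfr, it was 1 of 23 (4.35%), and beyond 20 Mb it was 17 of 1271 (1.34%). All 15 genes had the same sign on SFD, and 9 of them had an unadjusted p under 0.05 there too, where 24.0% of the stretch and 8.48% of the genes elsewhere did. With each HFD library left out in turn, 11 to 17 genes of the stretch had an unadjusted p under 0.05.

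**Figure D2:**
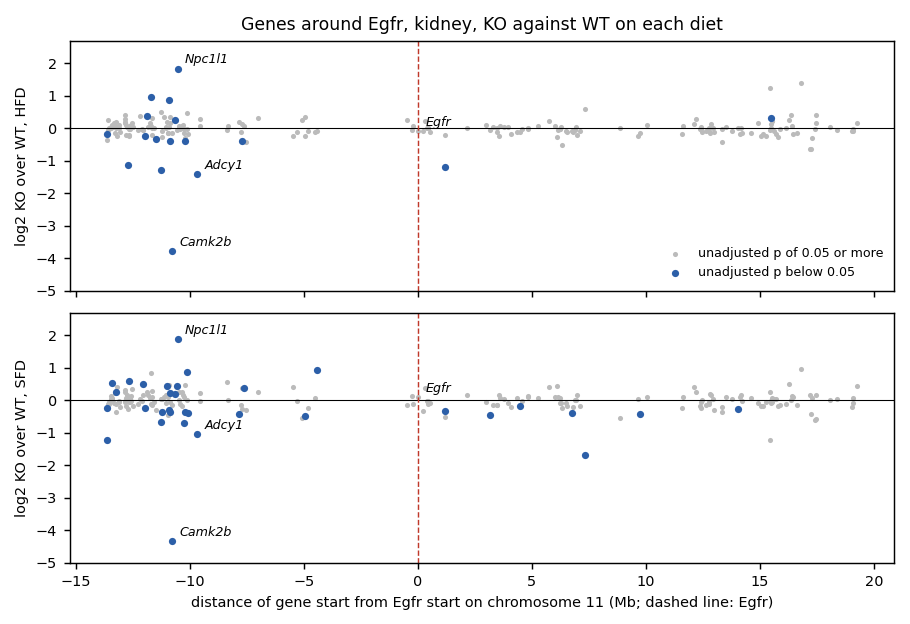
Genes of chromosome 11 near Egfr, by the distance of their start from the start of Egfr (x axis, Mb), with the log2 fold change of KO over WT on HFD (upper) and SFD (lower) on the y axis. Blue points have an unadjusted p under 0.05. On HFD 15 of them lie 7.70 to 13.6 Mb before Egfr, with Camk2b the lowest on either diet, while Egfr lies near 0.

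The 15 genes pointed in either direction, 5 higher and 10 lower in KO. Nudcd3, a co-chaperone that binds dynein chains, was at 57.9, 65.9, 59.3 and 56.5 FPM in WT-HFD and at 70.2, 70.9, 71.7 and 72.6 FPM in KO-HFD. The KO values lay together above all WT values, a log2 fold change of 0.25 ± 0.07 (SE) on HFD and 0.18 on SFD. Npc1l1, the intestinal sterol transporter, was near the limit of detection with 10 counts over the 4 WT-HFD and 36 over the 4 KO-HFD kidneys, and had log2 fold changes of 1.84 and 1.88 on HFD and SFD. Pold2, a subunit of DNA polymerase δ, and Ccm2, a scaffold protein of endothelial junctions, did not overlap between the groups. They had log2 fold changes of -0.38 and -0.40 on HFD and of -0.35 and -0.37 on SFD. Nf2, the tumour suppressor merlin, was lower in each KO mouse as well (log2 fold change -0.23 on HFD and -0.25 on SFD), as was Sfi1 with -0.18 and -0.25. Nipsnap1, a mitochondrial protein, had a log2 fold change of 0.38 with overlap. The pseudogene Gm11962 was at 1.30 ± 0.0955 FPM in WT and 0.539 ± 0.0933 FPM in KO (SD, n = 4 each). None of these 8 genes passed the test over all genes. A floxed allele is inherited with its neighbouring DNA, and all KO but no WT mice carried it, so the deletion and the DNA around the allele cannot be told apart for genes of this stretch.

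**Figure D3:**
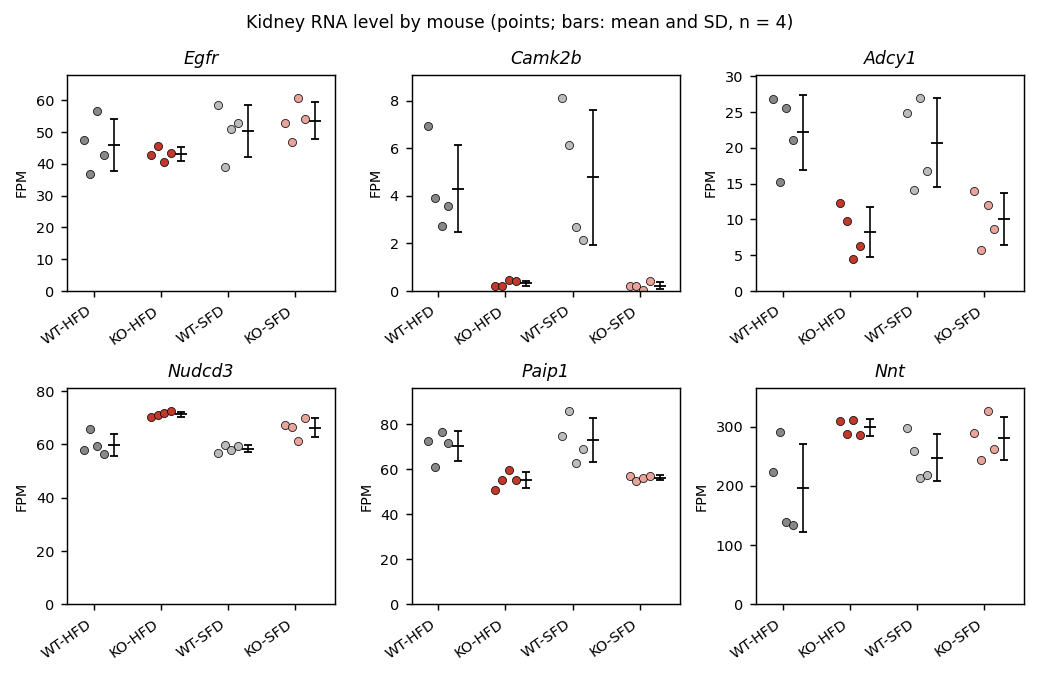
FPM in each of the 16 kidneys (points) with the mean and SD of each group (bars, n = 4), for Egfr, 4 genes whose KO and WT values do not overlap on HFD (Camk2b, Adcy1, Nudcd3, Paip1), and Nnt. The y axis starts at 0. The KO-HFD values of Camk2b lie between 0.216 and 0.443 FPM, below all WT values of either diet, and Nnt is low in WT-HFD mice 3 and 4.

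A second group of neighbours lay at the end of chromosome 13, around Nnt. Nnt encodes the mitochondrial nicotinamide nucleotide transhydrogenase and carries a deletion in C57BL/6J but not in C57BL/6N mice. It was at 223, 291, 139 and 134 FPM in WT-HFD and at 309, 287, 312 and 286 FPM in KO-HFD. WT mice 3 and 4 were the lowest of the 16 kidneys, whereas WT mouse 2 lay among the KO mice. The log2 fold change was 0.60 ± 0.20 (SE) on HFD, 0.22 on HFD without WT mice 3 and 4, and 0.18 on SFD. The stretch around Nnt was chosen after the values were seen, and Nnt itself is counted in it, so its shares are no independent support. Within 0.5 Mb of Nnt, 5 of 10 genes tested (50.0%) had an unadjusted p under 0.05 on HFD, against 1.75% of all genes. Without WT mice 3 and 4 it was 2 of 10, against 1.11% of all genes. On SFD it was 6 of 10, against 8.69%. Paip1, a binding partner of the poly(A)-binding protein, was at 72.4, 61.1, 76.5 and 71.9 FPM in WT-HFD and at 50.6, 55.2, 59.7 and 55.5 FPM in KO-HFD. The groups did not overlap on either diet, with log2 fold changes of -0.35 ± 0.10 (SE) on HFD and -0.38 ± 0.10 (SE) on SFD. Tmem267 had the opposite order to Nnt, with 57.6 and 49.2 FPM in WT-HFD mice 3 and 4 against 23.8 and 19.2 FPM in WT-HFD mice 1 and 2 and 9.40 to 23.4 FPM in KO-HFD. The remaining 2 of the 5 were 3110070M22Rik, which overlaps Tmem267 on the opposite strand and had a log2 fold change of -2.03 at under 1 FPM, and Ccl28, described with the chemokines. Whether substrain differed between the mice was not tested.

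The gene lists gave no member past the test. Over the 687 list genes tested, 11 (1.60%) had an unadjusted p under 0.05, 6 higher and 5 lower in KO, against 1.75% of all genes. Of the 36 lists with a member tested, 27 had a median log2 fold change within 0.1 of 0. The members named below are mostly those with the smallest p or the most fragments of each list, and the adjusted p over all genes was 1.00 for each that was tested (edgeR).

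**Figure D4:**
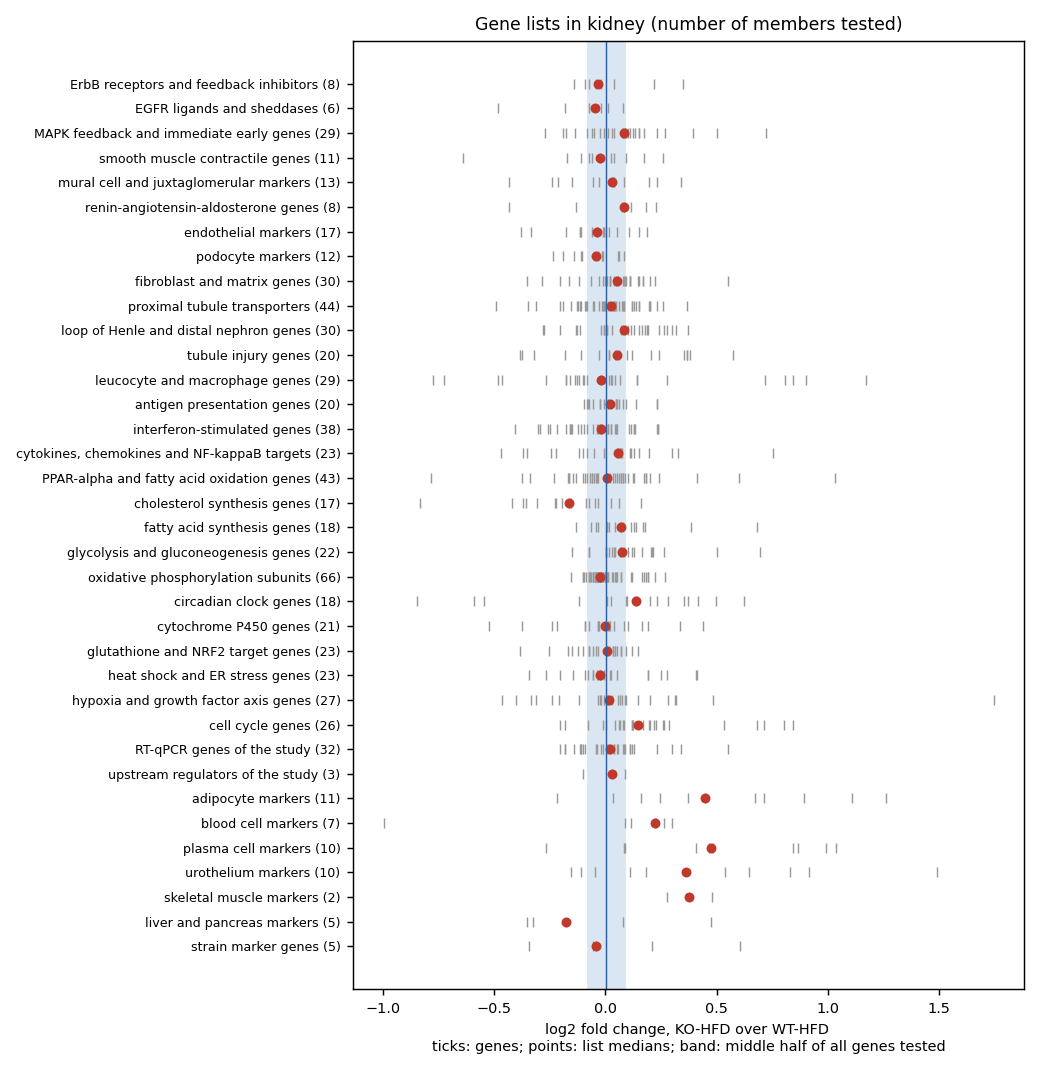
Log2 fold change of KO-HFD over WT-HFD (x axis) for the tested members of each list (grey ticks, number of members in brackets) and the list medians (red points). The blue band holds the middle 50% of all genes tested, from -0.08 to 0.09, and the blue line their median. Most medians lie in the band, that of cholesterol synthesis genes at -0.16, and the small lists of adipocyte, plasma cell and urothelium markers at 0.36 to 0.48.

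No gene of the cell type in which Egfr was deleted passed the test. Of 15 smooth muscle contractile genes, 11 were tested and the median log2 fold change was -0.03. Mylk, the myosin light chain kinase, had the most fragments of the list, at 123 ± 38.7 FPM in WT and 117 ± 18.0 FPM in KO (SD, n = 4 each). Lmod1, leiomodin of smooth muscle actin filaments, was at 3.66, 3.06, 2.96 and 3.39 FPM in WT-HFD and 3.85, 3.85, 3.74 and 4.22 FPM in KO-HFD. It was the only 1 of the 11 without overlap, against 1.32% of all genes. Its log2 fold change was 0.26, with an interval from -0.12 to 0.63. Kcnmb1, a subunit of the BK channel, had a log2 fold change of -0.64 (SE 0.36) at about 1 FPM. Tagln and Cnn1 lie on chromosome 9 and are not analysed here. Over the 13 tested mural cell and juxtaglomerular markers the median was 0.03. Ren1, renin, was at 50.6, 58.5, 57.6 and 72.4 FPM in WT-HFD and at 29.8, 40.6, 69.9 and 37.1 FPM in KO-HFD, where KO mouse 3 alone exceeded the WT mean of 59.8 FPM. Its log2 fold change was -0.44 ± 0.33 (SE). Adra1b, an α1-adrenoceptor, had a log2 fold change of 0.34 (SE 0.23). Of 8 renin-angiotensin-aldosterone genes the median was 0.08, Ace was at 306 ± 48.1 FPM in WT and 280 ± 46.3 FPM in KO (SD, n = 4 each), and Sgk1, the kinase induced by aldosterone, had a log2 fold change of 0.18 (SE 0.21).

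The markers of other cells of vessels, glomeruli and interstitium had medians near 0. The median log2 fold change was -0.04 over 17 endothelial markers, -0.04 over 12 podocyte markers and 0.05 over 30 fibroblast and matrix genes. Plvap of fenestrated endothelium was at 313 ± 9.54 FPM in WT and 316 ± 42.8 FPM in KO (SD, n = 4 each). Ehd3, a marker of glomerular endothelium, and Edn1, endothelin-1, had log2 fold changes of 0.19 and -0.38, with standard errors of 0.13 and 0.33. Among podocyte genes, Vegfa was at 420 ± 55.0 FPM in WT and 436 ± 33.3 FPM in KO (SD, n = 4 each). Plce1, phospholipase C ε, had a log2 fold change of -0.23 (SE 0.16), with overlap. Of the matrix genes, Col4a1 of basement membranes was at 189 ± 32.5 FPM in WT and 192 ± 10.9 FPM in KO (SD, n = 4 each). Mmp9, a gelatinase, had a log2 fold change of 0.55 (SE 0.31) at about 1 FPM, and Fbn1, fibrillin-1, one of -0.28 (SE 0.19).

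Along the tubule, no transporter or other segment gene passed the test. The median log2 fold change was 0.03 over 44 proximal tubule transporters and 0.08 over 30 loop and distal nephron genes. An unadjusted p under 0.05 was found for 1 of the 44 and 1 of the 30, against 1.75% of all genes. The groups did not overlap in 2 of the 44, both lower in KO, and in 2 of the 30, both higher, against 1.32% of all genes. Slc34a1, the sodium phosphate cotransporter of the proximal tubule, was at 7464 ± 932 FPM in WT and 8284 ± 1912 FPM in KO (SD, n = 4 each). Slc5a8, a sodium-coupled monocarboxylate transporter, was at 247, 297, 264 and 308 FPM in WT-HFD and at 221, 214, 218 and 246 FPM in KO-HFD. All KO values lay below all WT values, if only just for KO mouse 4, with a log2 fold change of -0.31 ± 0.13 (SE) on HFD and -0.10 on SFD. Slc22a8, the organic anion transporter OAT3, was at 588, 673, 651 and 589 FPM in WT-HFD and at 636, 641, 1082 and 864 FPM in KO-HFD. KO mice 3 and 4 were high and the other KO mice lay within the WT range, with a log2 fold change of 0.37 ± 0.18 (SE) on HFD and -0.54 on SFD. In the collecting system, Scnn1g, the γ subunit of the epithelial sodium channel, was at 27.95, 28.9, 23.8 and 26.0 FPM in WT-HFD and at 30.6, 34.8, 35.7 and 30.4 FPM in KO-HFD. The groups did not overlap, with a log2 fold change of 0.30 ± 0.10 (SE) on HFD and -0.05 on SFD. Atp6v0d2, a proton pump subunit of intercalated cells, did not overlap either, with a log2 fold change of 0.26 (SE 0.13).

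No marker of tubule injury or inflammation passed the test on HFD. The median log2 fold change was 0.05 over 20 tubule injury genes, and Spp1, osteopontin, had the most fragments with 417 ± 52.8 FPM in WT and 368 ± 45.5 FPM in KO (SD, n = 4 each). Clu, clusterin, was at 148, 215, 144 and 212 FPM in WT-HFD and at 167, 230, 304 and 237 FPM in KO-HFD, a log2 fold change of 0.38 ± 0.17 (SE) with overlap, and Cp, ceruloplasmin, had one of -0.32 (SE 0.22). Over 29 leucocyte and macrophage genes the median was -0.02, and without KO mouse 2 it was -0.31. Csf1r of macrophages was at 84.3 ± 4.83 FPM in WT and 75.5 ± 10.7 FPM in KO (SD, n = 4 each), and Adgre1, the macrophage antigen F4/80, had a log2 fold change of -0.47 (SE 0.22). Ms4a1, the B cell antigen CD20, had a log2 fold change of 1.17 that rested on KO mouse 2 with 7.92 FPM. The medians were 0.02 for 20 antigen presentation genes, -0.02 for 38 interferon-stimulated genes and 0.06 for 23 cytokines, chemokines and NF-κB targets. They were -0.13, -0.11 and -0.06 in that order without KO mouse 2, and -0.17, -0.16 and -0.10 without WT mice 3 and 4. H2-DMb1 and Tap2 had log2 fold changes of 0.23 and 0.14, and Gbp7 and Rtp4 of -0.30 and 0.24, all with overlap. H2-D1 was at 496 and 513 FPM, Irgm1 at 37.5 and 37.2 FPM and Cxcl12 at 145 and 140 FPM as the WT-HFD and KO-HFD means. Ccl28, a mucosal chemokine of epithelia and a neighbour of Nnt, was the only 1 of the 23 without overlap, against 1.32% of all genes. It was at 12.95 to 23.87 FPM in WT-HFD and 23.92 to 43.1 FPM in KO-HFD, with a log2 fold change of 0.76 ± 0.24 (SE). Il1b had a log2 fold change of -0.47 (SE 0.25) at about 2 FPM. Tnf was at 0.506 ± 0.153 FPM in WT and 0.479 ± 0.163 FPM in KO (SD, n = 4 each), and Csf2 had counts in WT mouse 4 only. Srf, the factor that drives contractile and immediate early genes, had a log2 fold change of 0.09 (SE 0.11). Over 32 tested genes on the list of RT-qPCR assays, the median was 0.02, and Mmp9 and Adra1b had the smallest p.

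Among the metabolic lists, that of cholesterol synthesis had the median farthest from 0. Of 17 tested genes of this pathway, 14 had a negative log2 fold change on HFD, against 7400 of all 15034 genes. The median was -0.16 on HFD and -0.20 on SFD, against 0.002 and under 0.001 in size over all genes. On HFD 3 of the 17 had an unadjusted p under 0.05, all lower in KO, against 1.75% of all genes. On SFD it was 6, again all lower, against 8.69%. The groups did not overlap on HFD in 1 of the 17, lower in KO, against 1.32% of all genes. Cyp51, lanosterol demethylase, was at 197, 248, 269 and 224 FPM in WT-HFD and at 222, 185, 137 and 187 FPM in KO-HFD, with a log2 fold change of -0.36 ± 0.13 (SE). Sqle, squalene epoxidase, was at 65.7, 65.9, 95.6 and 87.1 FPM in WT-HFD and at 64.2, 65.6, 35.2 and 69.4 FPM in KO-HFD, with a log2 fold change of -0.42 ± 0.17 (SE). For Cyp51 and Sqle the groups overlapped, and KO mouse 3 was the lowest of the 8. Hmgcs1, with the most fragments of the list, lies near Nnt and had a log2 fold change of -0.19 (SE 0.14). The list median depended on WT mice 3 and 4, without which it was 0.02. Other metabolic lists leaned to one sign as well, with 19 positive and 3 negative log2 fold changes for glycolysis and gluconeogenesis. Fatty acid synthesis had 14 and 4, oxidative phosphorylation 22 and 44, and PPAR-α and fatty acid oxidation genes 24 and 19.

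**Figure D5:**
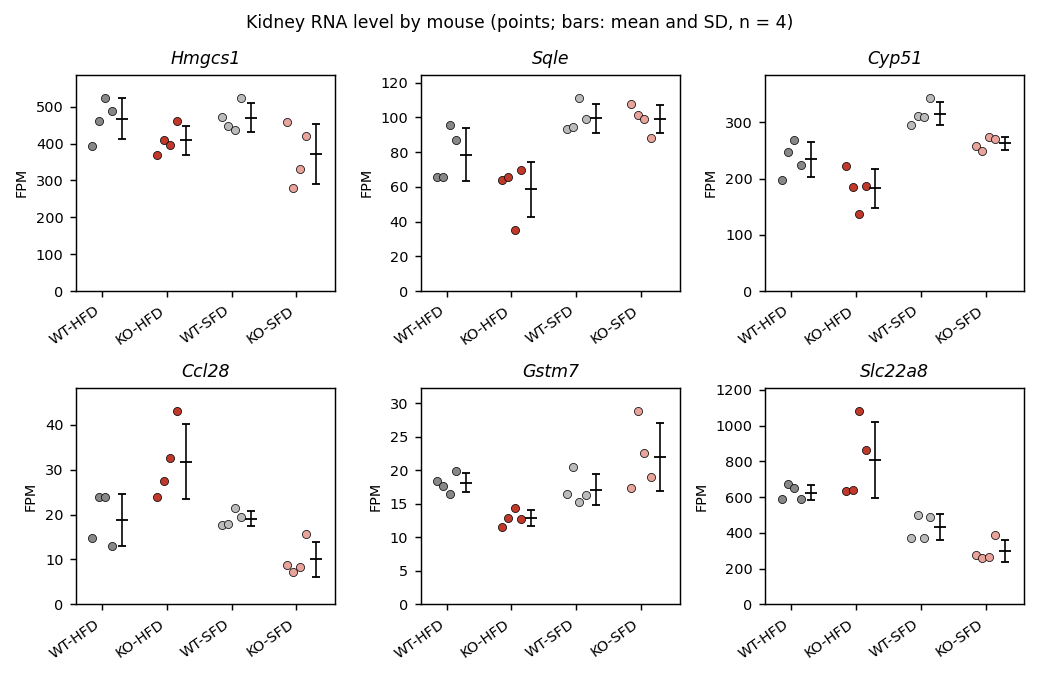
FPM in each of the 16 kidneys (points) with the mean and SD of each group (bars, n = 4) for 3 genes of cholesterol synthesis (Hmgcs1, Sqle, Cyp51), Ccl28, Gstm7 and Slc22a8. The y axis starts at 0. Sqle is lowest in KO-HFD mouse 3 with 35.2 FPM, and Ccl28 is above the WT values in KO-HFD but below them in KO-SFD.

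The remaining metabolic lists had medians close to that of all genes. Over 43 PPAR-α and fatty acid oxidation genes the median log2 fold change was 0.01, with Slc27a2 at 3543 ± 400 FPM in WT and 3236 ± 333 FPM in KO (SD, n = 4 each). Fabp1 and Acot1 had log2 fold changes of 0.60 and -0.34, and Acot1, an acyl-CoA thioesterase, was at 121 to 142 FPM in WT and 87.5 to 117 FPM in KO without overlap. Of the 43 genes, 1 lay wholly higher and 3 wholly lower in KO, against 0.645% and 0.678% of all genes. An unadjusted p under 0.05 was found for 0 of the 43, against 1.75% of all genes. Over 18 fatty acid synthesis genes the median was 0.07, and Dgat2 and Thrsp had log2 fold changes of 0.17 and 0.68 (SE 0.17 and 0.97). Over 22 genes of glycolysis and gluconeogenesis it was 0.08. Pck1, the key enzyme of gluconeogenesis, had a log2 fold change of 0.50 (SE 0.39) with 6980 FPM in KO mouse 3 and 2371 to 3715 FPM in all others, and Pklr had one of 0.21. Of 66 oxidative phosphorylation subunits the median was -0.02, the mean of Atp5b was 4022 FPM in WT and 3958 FPM in KO, and Ndufa12 and Atp5g2 had log2 fold changes of 0.27 and 0.23.

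No regulatory or stress gene passed the test either. The median was 0.14 over 18 circadian clock genes, which was 0.01 without WT mice 3 and 4, with Tef at 314 and 347 FPM as the WT and KO means, Npas2 at a log2 fold change of -0.85 (SE 0.57) and Hlf at 0.28 (SE 0.21). Over 21 cytochrome P450 genes it was -0.002, with Cyp4b1 at 5165 and 5793 FPM and Cyp2j11 and Cyp7b1 at log2 fold changes of -0.24 and -0.38. Over 23 glutathione and NRF2 target genes it was 0.01, with Gpx3 at 26884 and 29739 FPM and Gclm and Gstm1 at -0.17 and -0.25. Over 23 heat shock and ER stress genes it was -0.02, with Hsp90ab1 at 1132 and 1126 FPM. The log2 fold change of Xbp1 was -0.27, and -0.02 without WT mouse 3, which had 271 FPM. That of Fkbp5 was 0.28, and 0.04 without KO mouse 2, which had 131 FPM. Over 27 hypoxia and growth factor genes the median was 0.02, with Igfbp7 at 2098 and 2321 FPM, Igf2 at 0.48 and Igfbp3, which lies beside Adcy1, at 0.28 (SE 0.14). The 26 cell cycle genes had a median of 0.15, which was -0.05 without KO mouse 2. Kif11, a mitotic kinesin, had a log2 fold change of 0.85 ± 0.38 (SE) with 3.72 FPM in KO mouse 2, Ube2c had one of 0.53, and Ccnd1 was at 139 and 151 FPM.

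Markers of tissue that could come along with a kidney varied from mouse to mouse. Summed over 12 adipocyte markers the level was 162, 148, 104 and 119 FPM in WT-HFD and 205, 153, 193 and 87.4 FPM in KO-HFD, with the most fragments from Fabp4, at 73.3 ± 8.74 FPM in WT and 75.2 ± 18.1 FPM in KO (SD, n = 4 each). The median over 11 tested adipocyte markers was 0.45, and 0.01 without WT mice 3 and 4. Plin1 and Cfd had log2 fold changes of 1.11 and 1.26, with standard errors of 1.08 and 1.29. Plasma cell markers summed to 1259, 1084, 498 and 411 FPM in WT-HFD and 699, 2571, 517 and 340 FPM in KO-HFD, and Igkc, with the most fragments, had means of 230 FPM in WT and 317 FPM in KO. Their median log2 fold change of 0.48 was -0.55 without KO mouse 2, whose Mzb1 reached 21.1 FPM. Urothelium markers had a median of 0.36, which was 0.06 without KO mouse 1, with Krt7 at 99.3 ± 10.2 FPM in WT and 107 ± 16.4 FPM in KO (SD, n = 4 each). Krt17 and Upk3b had log2 fold changes of 1.49 and 0.91, with standard errors of 0.91 and 0.66. Blood cell markers, with the most fragments from Hba-a1 at 1261 and 1474 FPM as means, had a median of 0.23, which was -0.04 without KO mouse 3, with Hbb-bs at 0.30 (SE 0.34). Of 11 skeletal muscle markers only Actn3 and Pvalb were tested, with 0.48 and 0.28, and Pvalb is also expressed in the distal convoluted tubule. Liver and pancreas markers had a median of -0.18, which lay between -0.25 and -0.04 with 1 library left out, and Ttr, with the most fragments, and Apob had log2 fold changes of 0.48 and -0.33. The summed level of 12 adrenal markers was at most 1.04 FPM, and none passed the filter. Of 5 tested strain marker genes Nnt had the most fragments, and Wdfy1 had a log2 fold change of 0.21. The part of these tissues in any difference was not tested.

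The genotype comparison on SFD came from 8 other mice. It called 2 of 15034 genes at an adjusted p under 0.05 (0.0133%), Camk2b and the pseudogene Pisd-ps2. DESeq2 called 27, and edgeR called 0 with KO-SFD mouse 1, 2 or 3 left out. At an unadjusted p under 0.05 edgeR had 1307 genes on SFD (8.69%), 681 higher (4.53%) and 626 lower (4.16%) in KO. The groups did not overlap in 599 genes (3.98%), with 285 higher (1.90%) and 314 lower (2.09%) in KO. Pisd-ps2 was at 15.4 ± 3.69 FPM in WT-HFD and 10.5 ± 3.48 FPM in KO-HFD (SD, n = 4 each), with log2 fold changes of -0.54 on HFD and -1.52 on SFD. Of the 263 genes with an unadjusted p under 0.05 on HFD, 174 (66.2%) had the same sign on SFD, against 55.7% of all genes. On both diets 45 genes had an unadjusted p under 0.05, 35 of them with the same sign. The difference of the genotype effect between the diets was tested directly and called 0 genes (0.00%) at an adjusted p under 0.05 by edgeR's quasi-likelihood test, with 503 (3.35%) at an unadjusted p under 0.05, and DESeq2 called 0 as well.

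Ccl28 had the smallest p of this test. It was at 14.9, 23.8, 23.9 and 12.95 FPM in WT-HFD and at 23.9, 27.4, 32.6 and 43.1 FPM in KO-HFD, and at 17.6, 18.0, 21.4 and 19.4 FPM in WT-SFD and 8.78, 7.22, 8.38 and 15.7 FPM in KO-SFD. KO values lay above all WT values on HFD and below them on SFD, if on HFD by a small margin for KO mouse 1. The log2 fold change was 0.76 ± 0.24 (SE) on HFD and -0.94 ± 0.25 (SE) on SFD, and their difference was 1.69 ± 0.35 (SE), with an adjusted p of 1.00 (edgeR). Gstm7, a glutathione S-transferase, was at 18.4, 17.7, 16.5 and 19.9 FPM in WT-HFD and at 11.6, 12.9, 14.4 and 12.7 FPM in KO-HFD. All KO mice lay below all WT mice on HFD, with a log2 fold change of -0.50 ± 0.15 (SE) against 0.36 on SFD and a difference of -0.86 ± 0.20 (SE). Gltpd2, Dlgap3 and C430014B12Rik, all at about 1 FPM, had differences of -1.58, -2.62 and 1.91 between the diets. Dlgap3, a scaffold protein of synapses, was at 0.648, 1.48, 0.739 and 0.669 FPM in WT-HFD and at 0.271, 0.173, 0.380 and 0.151 FPM in KO-HFD, without overlap. All 5 genes missed the adjusted limit.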

How the data were processed

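RNA of kidney tissue was measured in 16 mice, 1 library each. Reads were trimmed by the sequencing company according to the study's methods, whereas the labels name cutadapt. The authors aligned them to GRCm38/mm10 with TopHat (Tophat2), annotated genes with BiomaRt and deposited raw gene counts from featureCounts, without normalisation. Strand setting and treatment of multi-mapping reads are not given in the sources used here. Gene positions came from GENCODE vM21, matched by identifier for 40254 of 41128 genes. Aortic libraries were not used.

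With R 4.3.3 and edgeR 4.0.16, the 16 kidneys were TMM scaled, filtered by filterByExpr and fitted together with glmQLFit and glmQLFTest, 1 coefficient per group. P values were adjusted by Benjamini-Hochberg over 15034 genes. FPM use TMM-scaled library sizes. Single values were tested by exact permutation on log2(FPM + 0.5). Scripts were tested on simulated data. Figures used Python 3.11.15 and matplotlib 3.10.9. No 2 HFD libraries were copies (chi-square per gene 9.84 or more over 28 pairs). The labels name single mice but no batch. Differences are relative to the TMM scale, and library totals shift the median gene by -0.01.

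Alternatives were DESeq2 1.42.0, RLE factors, library totals, no filter, only the compared groups, legacy quasi-likelihood, protein-coding genes, Cohen's d on log2 values, no FPM limit and leaving out each library. Leaving out WT-HFD mice 3 and 4, and a nephron covariate, were added after seeing the data. The members and lists were chosen with earlier results of these data known. Genes are named as ErbB receptors, as the up to 2 members of a list with the smallest p, as the member of a list with the most fragments, as upstream regulators predicted in the study (Tnf, Csf2) or as the 5 genes with the smallest p of the diet difference. The genes of chromosomes 11 and 13, those picked by effect size, Sqle, Umod, Pisd-ps2 and Igkc in single mice were named after their values were seen. Some genes that these rules name are not reported here.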

Additional observations from a re-analysis of the deposited data

Results flagged for a closer look

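Ccl28 was singled out because the 4 KO values lay above all WT values on HFD and, in other mice, below all WT values on SFD. On HFD the margin was small, with 23.92 FPM in KO mouse 1 and 23.87 FPM in WT mouse 3. The difference of the genotype effects on the log2 scale was 1.69, and it missed the adjusted limit. In 10 cases the highest or lowest of 4 mice stood apart from the other 3 of its group by Dixon's criterion at 95%, out of 186 groups of 4 checked, where chance alone gives about 1 in 20. KO-HFD mouse 3 stood apart with Pck1 at 6980 FPM and Sqle at 35.2 FPM. KO-HFD mouse 2 did so with Mzb1 at 21.1 FPM and Ube2c at 2.25 FPM, KO-HFD mouse 1 with Adra1b at 4.99 FPM and KO-HFD mouse 4 with Cyp4a14 at 109 FPM. WT-HFD mouse 3 stood apart with Xbp1 at 271 FPM. WT-HFD mouse 1 did so with Upk3b at 12.6 FPM and Gltpd2 at 0.833 FPM, and WT-HFD mouse 2 with Dlgap3 at 1.48 FPM. The cause was not tested in any of these.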

How the results depend on the processing

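No paired analysis was possible because the labels give no replicate numbers shared between the groups. The count of 0 genes at an adjusted p under 0.05 became 1, Camk2b, with DESeq2, without the low count filter, with the legacy quasi-likelihood test and with the nephron covariate, and the count of 0 at 0.001 became 1 with DESeq2. Both stayed at 0 with each HFD library left out. The 263 genes at an unadjusted p under 0.05 became 493 without the filter, 172 without WT-HFD mice 3 and 4, and 193 to 405 with 1 library left out, the upper value without WT-HFD mouse 1 and likewise without mouse 2. The 6 genes by effect size became 173 without the FPM limit and 5 to 20 with 1 library left out, with 20 without WT-HFD mouse 2. The 2 genes called on SFD became 27 with DESeq2, 5 without the filter and 0 to 4 with 1 SFD library left out. Egfr turned to 0.030 without WT-HFD mice 3 and 4, and lay between -0.185 and 0.025 with 1 library left out. For 92 other named genes, 1538 of 1556 values kept their sign and side of the limit, 4 passed it, all of Camk2b and from -3.88 to -3.75, and 14 turned. Without WT-HFD mice 3 and 4, Nrg1 was 0.027, Sgk1 -0.0063, Tap2 -0.041 and Npas2 0.16. With 1 library left out, the log2 fold change lay between -0.059 and 0.035 for Erbb2, -0.114 and 0.075 for Erbb3, -0.318 and 0.134 for Erbb4, -0.249 and 1.66 for Ms4a1, -0.271 and 0.039 for Tnf, and -0.250 and 1.15 for Mzb1. The cause was not tested. The count of 0 genes whose effect differed between the diets was also 0 with DESeq2, without the filter and with each of the 16 libraries left out. With 4 mice a group and about 1 FPM, few counts limit the weakly expressed genes.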
